A study of Bos taurus with 3 samples.

Results

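The miR-15/16 and miR-195/miR-497 family was described in small RNA from large dense-core vesicles, the organelles in which chromaffin cells of the adrenal medulla store catecholamines and peptides. Members were chosen by name, as bta-miR-15a, bta-miR-15b, bta-miR-16a, bta-miR-16b, bta-miR-195 and bta-miR-497 (bta for cattle, left off below), on every hairpin listed for them. These were 6 of 793 mature miRNAs, on 6 of 919 rows, so that each member had 1 hairpin and 1 row. The 3 libraries came from vesicles purified from bovine chromaffin cells, with cattle from a local slaughter as the source, and 500 ng of RNA entered each library. The labels name technical replicates 1 and 2 and a biological replicate and give no treatment, strain, sex or age, nor the step that the technical pair repeated or the number of animals behind a preparation. Means and SDs were therefore taken over n = 2 preparations, with the technical pair averaged first. Whole chromaffin cells were not analysed here, so the values show neither enrichment in vesicles nor a place inside them.

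Members of this family carry the same seed, the short stretch near the 5′ end through which a miRNA finds its targets. They are known as brakes on the cell cycle and on survival: cyclins and the anti-apoptotic protein BCL2 are textbook targets, and loss of the miR-15a/16 locus is a classic lesion of chronic lymphocytic leukaemia. Each pair is transcribed together from a hairpin cluster and then processed hairpin by hairpin, so that partners of a cluster can reach different mature levels.

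In the RefSeq gene table of the assembly ARS-UCD2.0 all 6 hairpins were found by name, and they formed 3 neighbouring pairs. MIR15A and MIR16A lay within LOC100847818, a transcribed pseudogene. MIR15B and MIR16B lay within the span of SMC4, which encodes a subunit of the condensin complex. MIR195 and MIR497 lay within LOC107131510, a long non-coding RNA. The gene table served only for which genes are neighbours, since the submitters' processing notes name the build UMD3.1. The count table names 1 mature product for each of the 6 hairpins, whereas 107 of its 808 hairpins have at least 2, and the opposite arms of the family were not analysed here.

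The libraries held 5546771, 6251664 and 6708654 counts over mature miRNAs, in the order technical 1, technical 2 and biological, which is kept for all triplets of values that follow. Levels are in CPM, counts scaled to a common library total. The limit that a count of 0 allows (3 counts) lay between 0.447 and 0.541 CPM, below every value of the family. miR-375 and miR-7, which mark endocrine and chromaffin cells, made up between 42.8% and 47.3% of the counts of each library. Intervals are exact 95% Clopper-Pearson intervals and cover counting error only, since the labels name no molecular identifiers.

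All 6 members were measured in every library, and together they were a small part of the vesicle RNA. The family held 0.158% ± 0.0102 (SD, n = 2) of the counts. Its shares were 0.164% (interval 0.161 to 0.168%), 0.167% (0.163 to 0.170%) and 0.151% (0.148 to 0.154%). The intervals of the technical pair overlapped, and that of the biological library lay below both. A share depends on the total, in which miR-375 alone held 381396, 358079 and 416586 CPM. With library totals as the scaling, the median log2 fold change of all miRNAs tested, biological over technical, was itself -0.17. How much of the lower share goes with this shift was not tested. The members were not alike in it: miR-195 with miR-497 made up 0.0227%, 0.0222% and 0.0131% of all counts. The miR-15 and miR-16 members made up 0.142%, 0.144% and 0.138%. miR-16a and miR-16b, the miR-16 copies, supplied 74.3%, 75.6% and 79.3% of the family's counts. The count of a miRNA also depends on how well its ends ligate during library preparation, so levels of different miRNAs are not molar amounts.

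miR-16a (MIMAT0009242), the most abundant member, was level across the libraries in CPM, a scaling by library total. It had 828, 837 and 818 CPM, from 4595, 5234 and 5491 counts, and the 3 intervals overlapped. It stood at rank 73, 72 and 72 of the 793 mature miRNAs. miR-16b (MIMAT0003525), its counterpart from the SMC4 locus, had 393, 423 and 381 CPM, at ranks 107, 105 and 105. The second technical library was the highest here, and the biological library lay closer to the first technical library than the technical pair lay to each other. The mature forms of the miR-16 copies are known to be nearly identical, so the split of reads between them is uncertain, although no other row of the table repeated the counts of any member. Their sum made up 0.122%, 0.126% and 0.120% of the counts. It does not depend on how reads are divided between the copies, but a read counted in full on both rows would inflate it. Some miRNAs of different names had equal log2 fold changes in edgeR, biological over technical, such as miR-339a and miR-339b (both -0.498). Whether reads of miR-16a and miR-16b were counted on both rows was not tested. The limit extends to the family's share.

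The miR-15 copies were scarcer than the miR-16 copies of the same clusters. miR-15b (MIMAT0003792), from the SMC4 locus, had 153, 145 and 149 CPM, from 851, 907 and 1000 counts. The biological value lay between the technical values. miR-15a (MIMAT0004334), the partner of miR-16a, had 42.4, 38.9 and 32.3 CPM from 235, 243 and 217 counts. The biological library was the lowest, and its interval (28.2 to 36.9 CPM) lay below that of the first technical library (37.1 to 48.1 CPM) and overlapped that of the second (34.1 to 44.1 CPM).

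miR-195 and miR-497, which share the seed but differ more from miR-16 outside it, were both lowest in the biological library. miR-195 (MIMAT0004335), known for its part in the exit of heart muscle cells from the cell cycle after birth, had 189, 175 and 105 CPM. These values came from 1050, 1092 and 702 counts, and the biological interval (97.0 to 113 CPM) lay below both technical intervals (178 to 201 and 164 to 185 CPM). miR-497 (MIMAT0004343), its cluster partner, had 38.0, 47.5 and 26.4 CPM from 211, 297 and 177 counts. The biological interval of miR-497 (22.6 to 30.6 CPM) also lay below both technical intervals (33.1 to 43.5 and 42.3 to 53.2 CPM). The technical values of miR-497 were themselves 0.32 apart on the log2 scale, more than those of any other member.

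**Figure D1:**
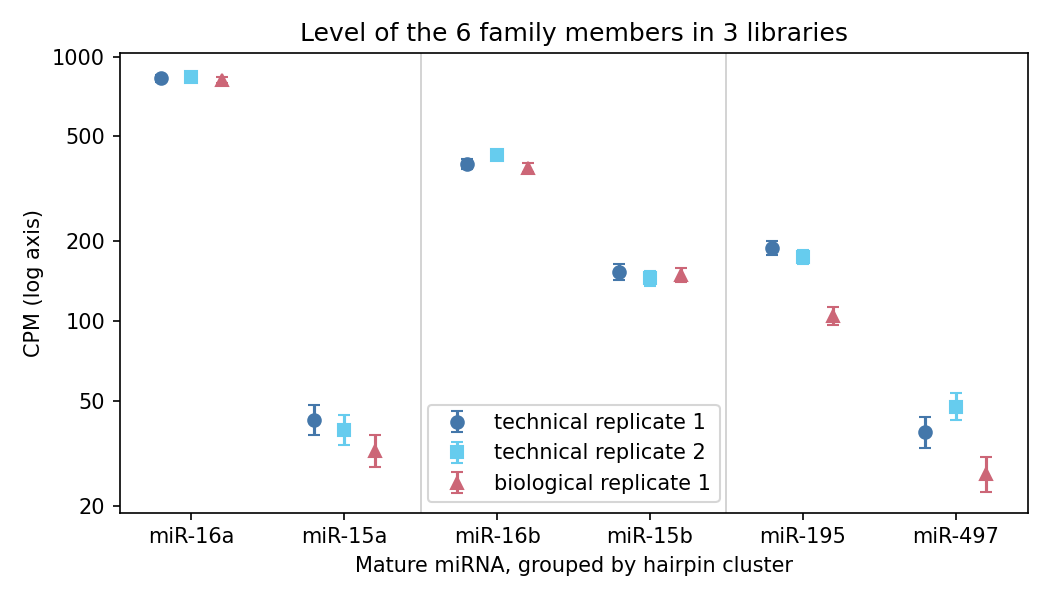
Level of each member in CPM on a log axis, by library, with exact 95% intervals as bars and vertical lines between hairpin clusters. miR-16a lies at 818 to 837 CPM in all 3 libraries with overlapping intervals. Only for miR-195 and miR-497 does the interval of the biological replicate (triangles) lie below both technical intervals.

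Within the technical pair, members lay as far apart as miRNAs at large by the median, and between preparations miR-195 and miR-497 stood out from the other members. The median absolute log2 ratio within the technical pair was 0.11 over the 6 members, from 0.02 to 0.31, and 0.11 over the 367 miRNAs that had 10 or more counts somewhere. Between the biological library and the mean of the technical pair the medians were 0.21 and 0.28, and the members ranged from 0.0018 for miR-15b to 0.79 for miR-195 (all on log2(CPM + 1)).

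The order of the levels was the same in every library at the top and differed lower down. miR-16a was followed by miR-16b in all 3 libraries. miR-195 stood above miR-15b in both technical libraries, where the ratio of miR-15b to miR-195 was 0.810 (upper bound 0.888) and 0.831 (upper bound 0.908). In the biological library miR-195 stood below miR-15b, at a ratio of 1.42 (interval 1.29 to 1.57). miR-15a and miR-497 closed the order. The ratio of miR-15a to miR-497 was 1.11 (0.921 to 1.35), 0.818 (0.688 to 0.973) and 1.23 (lower bound 1.00), so their order differed within the technical pair.

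Partners of a cluster were measured at unequal levels, and the inequality differed between clusters. Ratios were taken within a library, so that no scaling between libraries enters them. miR-16a exceeded miR-15a by 19.6-fold, 21.5-fold and 25.3-fold, a mean log2 ratio of 4.51 ± 0.21 (SD, n = 2). miR-16b exceeded miR-15b by 2.56-fold, 2.92-fold and 2.55-fold, a mean log2 ratio of 1.40 ± 0.07 (SD, n = 2). As counted, the excess of miR-16 over miR-15 was larger in the miR-15a/16a cluster in every library. The lowest bound was 17.1 there, against a highest bound of 3.15 in the miR-15b/16b cluster. These ratios rest on the uncertain split of reads between miR-16a and miR-16b, which the bounds do not cover.

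miR-195 exceeded miR-497 by 4.98-fold (4.29 to 5.80), 3.68-fold (3.23 to 4.19) and 3.97-fold (3.36 to 4.70). This log2 ratio changed by -0.44 from the first to the second technical library and by -0.11 from the technical mean to the biological library. The technical intervals did not overlap, whereas the biological ratio lay between the technical ratios and its interval overlapped both of theirs.

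Ratios between members of different clusters showed where the preparations parted. miR-16a exceeded miR-195 by 4.38-fold (4.09 to 4.68), 4.79-fold (4.49 to 5.12) and 7.82-fold (7.23 to 8.47). The log2 ratio was 0.77 higher in the biological library than in the technical mean, against 0.13 between the technical libraries. miR-16b exceeded miR-195 by 2.07-fold, 2.42-fold and 3.64-fold, a log2 difference of 0.70 between preparations against 0.22 within the technical pair. The ratio of miR-16a to miR-16b was 2.11, 1.98 and 2.15, with overlapping intervals. The ratio of miR-15b to miR-15a was 3.62, 3.73 and 4.61, also with overlapping intervals. The log2 difference was 0.33 between preparations against 0.04 within the technical pair.

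**Figure D2:**
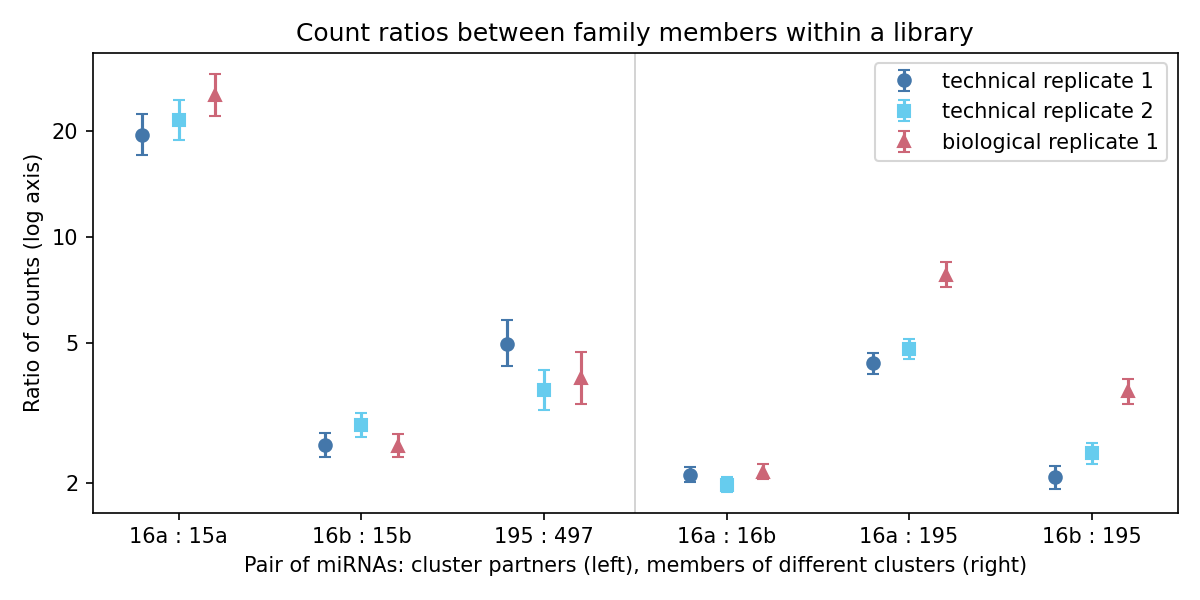
Ratio of counts between pairs of members within each library on a log axis, with exact 95% intervals as bars; cluster partners are left of the line and members of different clusters right of it. The biological replicate (triangles) departs from both technical libraries in the ratios of miR-16a and miR-16b to miR-195, at 7.82 and 3.64.

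Read by locus, the miR-15a/16a cluster supplied 53.0%, 52.6% and 56.3% of the family's counts. The miR-15b/16b cluster supplied 33.2%, 34.1% and 35.0%, and miR-195 with miR-497 supplied 13.8%, 13.3% and 8.67%. The division between the miR-15a/16a and miR-15b/16b clusters rests on the uncertain split of reads between miR-16a and miR-16b. The biological library was thus poorer in the miR-195 cluster relative to the others. Of the total of all miRNAs, the miR-15 and miR-16 members made up 0.142%, 0.144% and 0.138%, and miR-195 with miR-497 made up 0.0227%, 0.0222% and 0.0131%.

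**Figure D3:**
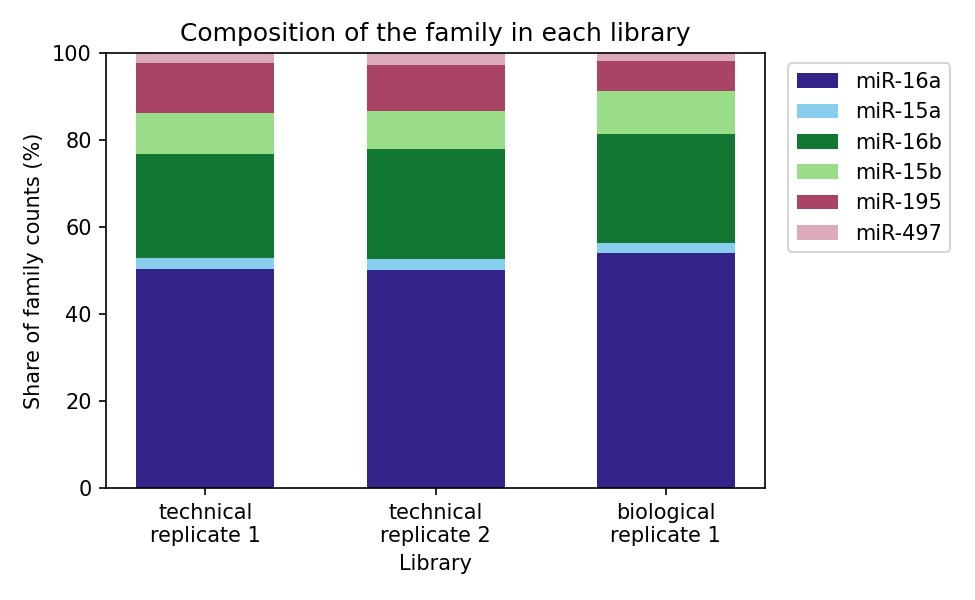
Share of each member in the family's counts, stacked to 100% for each library. miR-16a is the largest block in every library (50.4%, 50.2% and 54.2%), and the blocks of miR-195 and miR-497 are smaller in the biological replicate.

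In the lone biological library miR-195 and miR-497 were called lower than in the technical pair, and the miR-15 and miR-16 members did not pass. The test was edgeR's quasi-likelihood test with Benjamini-Hochberg adjustment. Its spread holds no variation between preparations: it comes from the technical pair (1 residual degree of freedom) and was pooled over all miRNAs in the fit, since edgeR put its prior degrees of freedom at infinity. A call therefore says that a difference between these 3 libraries exceeds technical spread, not that preparations or animals differ, and the size of a p is no measure of strength. The log2 fold change of miR-195 was -0.62 ± 0.12 (SE; edgeR, adjusted p = 5.96e-06, and 0.0077 with library totals as the scaling). That of miR-497 was -0.52 ± 0.17 (edgeR, adjusted p = 0.0084, and 0.039 with library totals), and against the first or the second technical library alone it was -0.39 or -0.64, with no test. The call of miR-497 was lost in DESeq2 (adjusted p = 0.21) and in edgeR when the libraries were scaled by the size factors of DESeq2 (adjusted p = 0.057). In the family 2 of 6 members were thus called lower and 0 higher, while over all 367 miRNAs in the fit 20.2% were called lower and 17.7% higher at an adjusted p below 0.05. All 6 members passed the count filter in every library, and the median of their log2 fold changes was -0.03, against 0.01 over all miRNAs tested. No member was higher at an unadjusted p below 0.05 in edgeR, and 0 were higher in DESeq2. DESeq2 called 14.6% of its miRNAs lower and 15.3% higher, and 1 of 6 members lower. edgeR with the DESeq2 scaling called 18.0% lower, also with 1 of 6 members. A fit of the miRNAs averaging 100 CPM or more called 26.3% lower, and 1 of the 4 members it holds.

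Log2 fold changes of the members that did not pass were 0.16 ± 0.10 (SE) for miR-16a, 0.08 ± 0.10 for miR-16b, 0.18 ± 0.12 for miR-15b and -0.14 ± 0.17 for miR-15a, with adjusted p-values from 0.20 to 0.59 in edgeR. With library totals in place of TMM, the scaling edgeR derives from most miRNAs, the values of miR-16a, miR-16b and miR-15b turned to -0.03, -0.10 and -0.0013, since this choice moves the median of all miRNAs by -0.18. miR-16b was below 0 also among the miRNAs averaging 100 CPM or more (-0.07) and in the authors' deposited table of log2 values (-0.07).

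**Figure D4:**
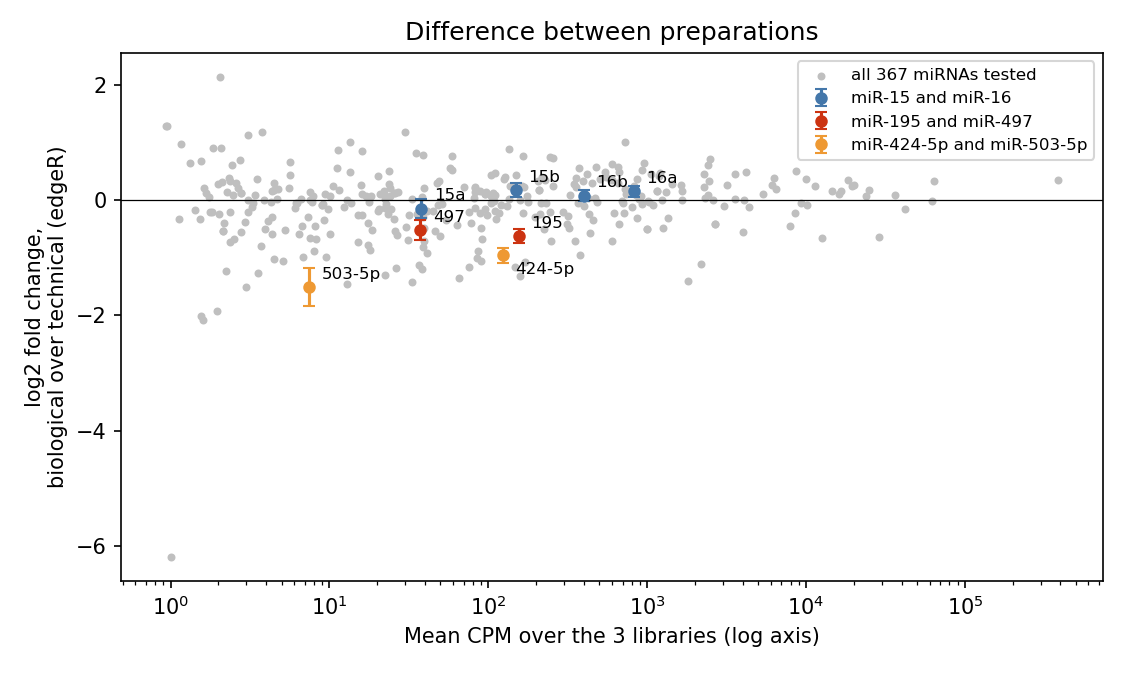
edgeR log2 fold change of the biological replicate over the technical pair against mean CPM (log axis) for all 367 miRNAs tested (grey), with SE bars for the family and for miR-424-5p and miR-503-5p. The miR-15 and miR-16 members lie between -0.14 and 0.18, and miR-195, miR-497, miR-424-5p and miR-503-5p lie lower, from -0.52 to -1.51.

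Outside the chosen names, miR-424-5p and miR-503-5p carry the core of the same seed, and their hairpins are neighbours of each other (MIR424 and MIR503). Both were called lower in the biological library, 2 of 2 where 20.2% of all miRNAs were called lower. As hairpins of 1 locus they may not be independent, and a link to the seed was not tested. miR-424-5p (MIMAT0013593) had 163, 138 and 68.3 CPM. Its log2 fold change was -0.96 ± 0.13 (SE; edgeR, adjusted p = 6.29e-11, and 0.0061 with library totals). miR-503-5p (MIMAT0025557) was rare, with 53, 61 and 20 counts, and its log2 fold change was -1.51 ± 0.33 (SE; edgeR, adjusted p = 4.32e-05, and 0.0086 with library totals). DESeq2 gave miR-503-5p no adjusted p. With both added, the named miRNAs of this seed made up 0.182%, 0.181% and 0.158% of all counts.

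Markers of other cells also differed between the libraries, and their counts of calls stand against the 20.2% of all miRNAs called lower and 17.7% called higher in the same edgeR fit. Of the 6 smooth muscle and fibroblast miRNAs measured (miR-143, miR-145, both arms of miR-199a, miR-199b and miR-214), 5 were called lower and 0 higher in the biological library. The 6 summed to 16827, 18866 and 10249 CPM, most of it miR-143 with 13712, 15656 and 8206 CPM. miR-145 had only 14, 12 and 11 counts and did not pass. Both arms of miR-126, the endothelial marker, were called lower, with a sum of 1820, 1888 and 1130 CPM. Of 5 leukocyte miRNAs tested, 2 were called lower (miR-146a and miR-142-5p) and 0 higher, and DESeq2 called 1 of 3 lower. The 6 leukocyte miRNAs measured summed to 281, 280 and 123 CPM. miR-16 is also known to be abundant in blood cells, for which red cell miRNAs were listed. They summed to 898, 837 and 1097 CPM, nearly all of it miR-486, which was called higher, while miR-451, the defining red cell miRNA, had 23.6, 20.2 and 16.8 CPM and did not pass. No miRNA of these lists was at 0 in any library. The part of these cells in the lower values of miR-195 and miR-497 was not tested. The libraries hold RNA of purified vesicles, so the number of such cells, their RNA per cell and the purity of a preparation cannot be told apart.

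The summed family had a profile over the 3 libraries most like those of miR-27a-3p, miR-152 and miR-411c-5p, among 163 other miRNAs averaging 100 CPM or more. Likeness was the Euclidean distance between log2(CPM + 1) values centred over the libraries, and it was 0.023, 0.037 and 0.042. With only 3 libraries this is a description, in which miR-27a-3p had 3713, 3732 and 3337 CPM.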

How the data were processed

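Small RNA of 3 libraries was analysed. Raw read counts are deposited per mature miRNA and hairpin (919 rows), beside values in CPM by the authors that equal the count over the column total within 0.005. A second deposited table holds log2 values of CPM by the authors (459 rows, all 6 members included) and served as an alternative. Per the submitters' processing notes, the build UMD3.1 and the package edgeR were involved, in roles that are not stated. The aligner, counter and miRBase release: not given in the sources used here. A mature miRNA with several hairpins was taken at its row with most counts, and CPM were recomputed over these rows. The test was edgeR 4.0.16 (TMM, quasi-likelihood, R 4.3.3) on all miRNAs reaching 10 counts in any library, checked on simulated data, with DESeq2 1.42.0 as an alternative. SEs come from the fold and the F statistic, and intervals from scipy 1.17.1. The members and all lists were chosen with earlier results of these data known. Named miRNAs are the members, the relatives by seed (taken by name), the marker lists and the 3 miRNAs nearest in profile. Nothing states that the libraries come from separate animals. The p-values rest on technical spread in either case, since only the technical pair leaves a residual degree of freedom.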

Additional observations from a re-analysis of the deposited data

How the results depend on the processing

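The calls of miR-195, miR-424-5p and miR-503-5p held in every alternative that gave an adjusted p (adjusted p from 1.17e-06 to 0.013 for miR-195, in edgeR or DESeq2). Of the 6 members, 1 in place of 2 was lower in DESeq2, with DESeq2's size factors in edgeR, and among miRNAs averaging 100 CPM or more, a fit that holds 4 members and not miR-497 or miR-15a. miR-497 passed in 4 of 6 such alternatives, with log2 fold changes from -0.70 to -0.39 over all 9. With the smooth muscle, fibroblast and endothelial miRNAs left out of the fit (added after seeing the data), miR-195 and miR-497 were at -0.65 and -0.55 and passed. That fit alters only the scaling and the pooled spread and leaves the counts of miR-195 and miR-497 as they were. The part of those cells in the lower values was therefore not tested by it. No miR-15 or miR-16 member passed under any alternative run. The family's share became 0.120% with rows summed over hairpins or all rows in the total, because more counts enter the total, and 0.261% with miR-375 left out of it. Leaving out a library gave a share of 0.158 to 0.166% and a log2 ratio of miR-195 to miR-497 of 1.93 to 2.15. Without a technical library no test was possible, since no residual degree of freedom is left. Fold changes without technical replicate 1 or 2 were -0.53 and -0.72 for miR-195 and -0.64 and -0.39 for miR-497. No paired analysis was possible because the labels define no pairs and there is only 1 biological library. Depth limits miR-15a, miR-497 and miR-503-5p most, with 297 counts or fewer in each library.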
